A study of Mus musculus with 6 samples.

Results

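Genes for costimulatory receptors of T cells were followed here, 10 of 18446 genes measured by RNA sequencing, taken from a list of names that sets no threshold on their values. They are Cd28, Icos, Cd2 and Cd226 of the immunoglobulin superfamily, and Tnfrsf9, Tnfrsf4, Tnfrsf18, Cd27, Tnfrsf1a and Tnfrsf1b of the tumour necrosis factor (TNF) receptor superfamily. The cells were naive CD4+ T cells of C57BL/6 mice aged 6 to 8 weeks, sorted from spleen and lymph nodes as CD44 low and CD62L high. They were collected unstimulated (0 h) or after 6 h or 48 h in medium with antibodies against CD3 and CD28. Wild-type (WT) cells were compared with cells labelled Zak-/-. The labels also describe the deficient mice as conditional in T cells, name no Cre, and do not say whether mice were pooled. Zak, a kinase of the MAP kinase cascades, is the product of Map3k20. Each combination of genotype and time is 1 library, so the design holds 6 libraries with no replicates, and no p-value is given. Values are FPKM, fragment counts scaled to transcript length and to library size.

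A T cell that meets antigen through its T cell receptor needs further signals from costimulatory receptors to divide, survive and make cytokines. CD28 gives the classical second signal when it binds CD80 or CD86 on an antigen-presenting cell, and it is also 1 of the 2 targets of the antibodies used here. ICOS, OX40 and 4-1BB are textbook inducible receptors of activated T cells, while CD27 and CD2 are present on naive cells. The TNF receptor family members bind trimeric ligands and recruit TRAF adaptors, which lead to NF-kB and survival genes.

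Differences were taken after adding 1 to each FPKM value, on a log2 scale, so folds of low genes come out too small. A gene was counted when it differed at least 2-fold. Counts use the 10347 genes whose mean reached 1 FPKM, and all 10 members passed that filter. Summed FPKM ranged from 496045 to 546113 per library; the sequencing depth is unknown. Map3k20 stood at 0.17, 0.19 and 1.35 FPKM in WT at 0, 6 and 48 h and at 0.10, 0.10 and 1.61 in the libraries labelled Zak-deficient. At 48 h its level did not separate the genotypes as labelled, so each direction between them rests on the label. CD4 T cell markers (Cd3e, Cd3d, Cd3g, Cd4, Cd5 and Lat) summed to between 1743 and 2099 FPKM. Markers of other cells were low: Cd8a was at or below 1.02 FPKM, 6 B cell markers summed to 3.33 to 7.64, 8 myeloid markers to 1.70 to 2.90, with Cd14 and Itgax listed at 0 in resting WT cells, and 6 NK cell markers to 2.89 to 9.81. The 6 regulatory T cell markers were higher, at 92.9 to 207.6 FPKM in sum, but they did not share 1 course. At 0, 6 and 48 h in WT, Ctla4 stood at 52.0, 47.9 and 70.4 FPKM and Il2ra at 10.2, 99.7 and 89.6. Foxp3 stood at 14.1, 40.3 and 5.90 and Nrp1 at 1.28, 1.48 and 7.88. Ikzf2 (3.98, 3.59 and 1.18) and Ikzf4 (11.3, 9.97 and 3.89) went down. The sum is thus no measure of regulatory T cell content. Cd8b1 lay between 8.11 and 12.04 FPKM. The 7 naive T cell markers summed to 3569 FPKM at rest and 655.7 at 48 h in WT. In such bulk samples, fewer cells of a type and less RNA per cell cannot be told apart. Over all genes, scaling moved the split of calls at 6 h: 925 higher and 144 lower in WT became 810 and 279 with a common sum, and 939 and 157 under the other label became 822 and 333 with upper-quartile scaling. Between 48 h and 6 h under that label, 1121 higher and 678 lower became 924 and 882 with median-ratio scaling. Between the labels at 6 h, 12 higher and 14 lower became 15 and 8 with a common sum. Scaling shifted the median gene by over 0.1 (log2) in 3 comparisons: between the labels at 48 h (-0.16 with median-ratio and 0.11 with upper-quartile scaling), and, under the label Zak-deficient, from 6 h to 48 h (-0.14 and 0.11) and from 0 h to 48 h (-0.12 with a common sum).

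After 6 h in WT, 4 of the 10 receptor genes stood 2-fold or more above rest: Tnfrsf9, Icos, Tnfrsf1b and Tnfrsf4. Of all genes tested, 8.94% were. No member was 2-fold lower (1.39% of all genes). Under the label Zak-deficient, 4 members were higher (Tnfrsf9, Icos, Tnfrsf1b and Cd27, against 9.08% of all genes) and 1 was lower (Cd226, against 1.52%). Cd27 and Tnfrsf4 lay close to the 2-fold line in both, at 1.97-fold and 2.23-fold in WT and at 2.02-fold and 1.98-fold under the other label. Under the label Zak-deficient, Cd27 no longer passed with a common sum (log2 0.98), upper-quartile scaling (0.90) or a pseudocount of 5 FPKM (0.996), and Tnfrsf4 passed with median-ratio scaling (1.05). The members' median log2 change was 0.68 in WT and 0.67 under the other label, where the median gene stood at -0.06 and -0.08.

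At 48 h, 4 members were at least 2-fold above rest in WT (Tnfrsf9, Tnfrsf4, Icos and Cd226), beside 17.8% of all genes. Cd2 was lower, beside 12.3% of all genes. Under the other label 3 were higher (Tnfrsf9, Icos and Tnfrsf4, with 18.5% of all genes) and Cd2 was again the 1 lower member (12% of all genes). From 6 h to 48 h the same 4 members passed the rule under both labels. Cd226 was higher at 48 h, beside 9.32% of all genes in WT and 10.8% under the other label. Tnfrsf9, Cd2 and Cd27 were lower, beside 6.15% and 6.55%. The courses had several shapes, which are not set by the 2-fold rule. Tnfrsf9 and Cd27 peaked at 6 h, and Tnfrsf9 was still above rest at 48 h. Cd2 was lower at 48 h after a small step up at 6 h. Icos, Tnfrsf4 and Tnfrsf1b were higher at both times, though not always past the rule. Cd226 had a low at 6 h and a high at 48 h. Tnfrsf18, Tnfrsf1a and Cd28, the last with a small step at each time, changed little.

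**Figure D1:**
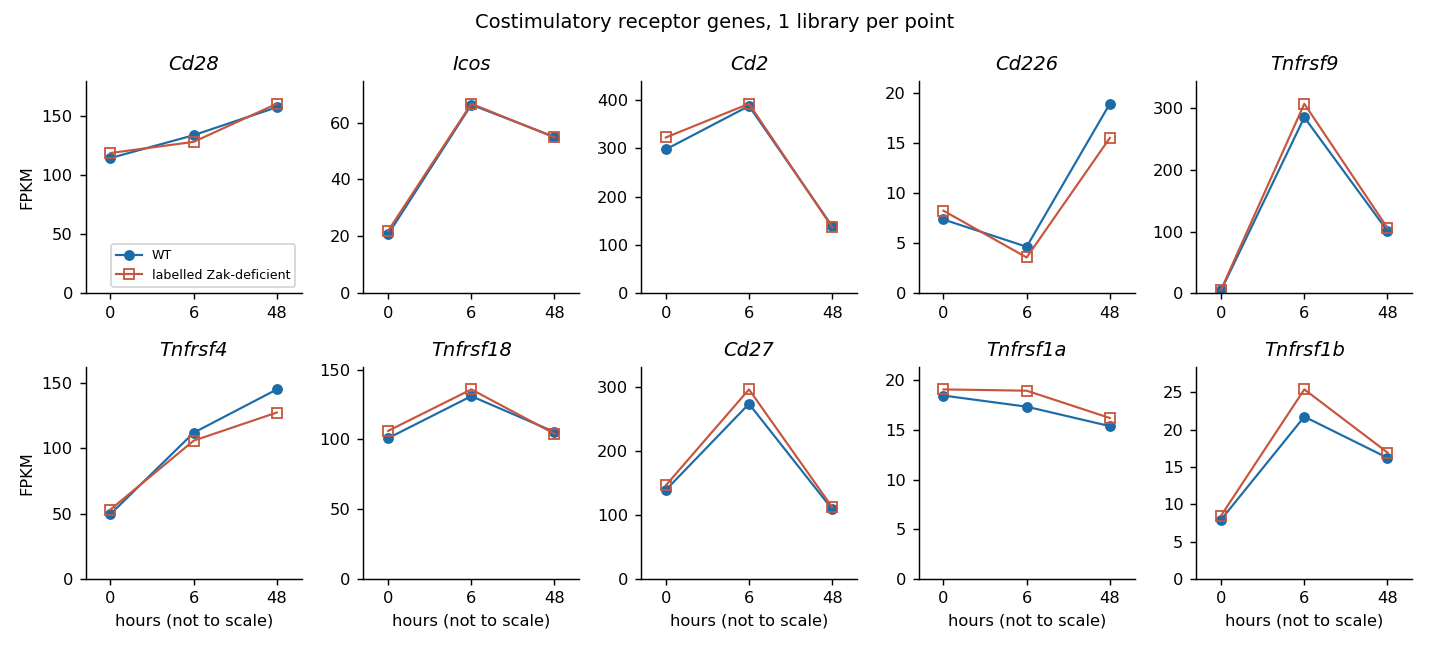
FPKM (y axis, from 0) of the 10 receptor genes at 0, 6 and 48 h (x axis, not to scale); each point is 1 library, filled circles WT and open squares the libraries labelled Zak-deficient. Each panel has its own y scale. The 2 lines of each gene run close together, less so for Cd226 and Tnfrsf4 at 48 h and for Tnfrsf1b at 6 h. At 48 h Cd226 is at 18.95 FPKM in WT and 15.5 under the other label, and Tnfrsf4 at 145.2 and 127.5. At 6 h Tnfrsf1b is at 21.75 FPKM in WT and 25.4 under the other label. Tnfrsf9 goes from 4.65 to 285.3 FPKM and back to 100.8 in WT, while Tnfrsf1a stays between 15.4 and 19.1 in all 6 libraries.

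Among the 10 receptor transcripts, Cd28 (chromosome 1, 60746388 to 60773359, mm10) ranked 3 from the top at rest under both labels. At 6 h it ranked 4 in WT and 5 under the other label. It stood at 114.1, 133.4 and 157.0 FPKM in WT at 0, 6 and 48 h and at 118.4, 127.8 and 159.9 under the other label. Both courses went up at each step, and 48 h was 1.37-fold above rest in WT and 1.35-fold under the other label, below the 2-fold rule. At 48 h Cd28 had the highest level of the 10 genes under both labels, a place that Cd2 held at 0 h and 6 h. By root mean square distance of centred log2 values over the 6 libraries, the genes most like it were Polr2i, Rpl15 and Elavl1 (0.023 to 0.027).

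Icos, the inducible costimulator that binds ICOSL and is known for its part in follicular helper T cells, lies 187.4 kb beyond Cd28 on the same chromosome (60960773 to 61000322). Its levels were 20.7, 66.3 and 55.0 FPKM in WT and 21.9, 66.6 and 54.8 under the other label. Both stimulated times lay above rest under both labels, by 3.10-fold and 2.58-fold in WT. Ctla4, which encodes the inhibitory competitor of CD28 for CD80 and CD86, sits between the 2 genes. It stood at 52.0, 47.9 and 70.4 FPKM in WT and at 67.9, 47.7 and 61.2 under the other label, so it did not share the 6 h step of Icos. The genes most like Icos were Xpot, Spata5 and Mars1 (distances 0.054 to 0.059), and among the members Tnfrsf1b (0.17).

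Cd2 (chromosome 3, 101275908 to 101287939), an adhesion and costimulatory receptor that binds CD48 in mice, was the most abundant member at rest. It stood at 297.7, 387.6 and 138.6 FPKM in WT and at 322.3, 392.2 and 136.5 under the other label. Both 48 h libraries lay below all others. The 48 h level was 2.14-fold below rest in WT and 2.35-fold under the other label. Its share of the summed FPKM of the 10 genes was 39.8% at rest and 16.1% at 48 h under the label Zak-deficient. Ppp1r15a, Gch1 and Alkbh6 had the most similar courses (0.064 to 0.085).

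Cd226 encodes DNAM-1, which binds the product of Pvr and competes there with TIGIT and CD96. It ranked 8 to 10 among the 10 members in every library. Its levels were 7.37, 4.64 and 18.95 FPKM in WT and 8.25, 3.57 and 15.5 under the other label. The 6 h libraries held the lowest values and the 48 h libraries the highest, under both labels. From 6 h to 48 h the level was 3.54-fold higher in WT and 3.62-fold higher under the other label. Against rest it was 1.48-fold and 2.02-fold lower at 6 h, and 2.38-fold and 1.79-fold higher at 48 h. With a pseudocount of 5 FPKM 2 of its log2 changes against rest no longer passed the rule: 0.95 at 48 h in WT and -0.63 at 6 h under the other label, where median-ratio scaling gave -0.96. From 6 h to 48 h they still passed, at 1.31 in WT in place of 1.82 and 1.26 under the other label in place of 1.85. No member's responses differed more between the labels, by 1.36-fold at 6 h and 1.33-fold at 48 h. Haus4, Atpif1 and Dbf4 were most like it (0.11 to 0.12).

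Tnfrsf9 encodes 4-1BB, a receptor of activated T cells whose signal supports survival. It was the member with the lowest level at rest and the highest but 1 at 6 h. The values were 4.65, 285.3 and 100.8 FPKM in WT and 5.72, 307.4 and 105.7 under the other label. Its 6 h change ranked 4 from the top of 10347 genes in WT and 8 under the other label. From 6 h to 48 h it was 2.81-fold and 2.89-fold lower, and it was then still 18.0-fold and 15.9-fold above rest. With a pseudocount of 5 FPKM the log2 changes against rest were smaller: 4.91 in place of 5.66 at 6 h and 3.46 in place of 4.17 at 48 h in WT, and 4.87 in place of 5.52 and 3.37 in place of 3.99 under the other label. Akr1c18, Egr1 and Tnf had the most similar courses, at larger distances than for the other members (0.25 to 0.32).

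RefSeq (GRCm38.p6, the build of mm10) gives Tnfrsf9 2 transcription starts, 7844 bases apart on the plus strand of chromosome 4. They are shown because this gene had the largest response of the 10. Windows of 250 bases before each start were searched on both strands for the NF-kB consensus, for the AP-1 motif TGANTCA and for the NFAT core GGAAA. Capitals mark NF-kB and AP-1 matches. The first window is chr4:150919905-150920154. For the second start, chr4:150927749-150927917 and 2 short sites are printed, chr4:150927951-150927970 and chr4:150927979-150927998, since the last 81 bases of that window are an annotated untranslated exon of another Tnfrsf9 transcript.
Tnfrsf9 upstream start: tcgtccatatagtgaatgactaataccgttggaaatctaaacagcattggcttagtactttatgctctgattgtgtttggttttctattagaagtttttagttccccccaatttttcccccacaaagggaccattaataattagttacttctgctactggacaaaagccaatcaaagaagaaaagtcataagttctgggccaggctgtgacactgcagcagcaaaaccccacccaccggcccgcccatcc
Tnfrsf9 downstream start: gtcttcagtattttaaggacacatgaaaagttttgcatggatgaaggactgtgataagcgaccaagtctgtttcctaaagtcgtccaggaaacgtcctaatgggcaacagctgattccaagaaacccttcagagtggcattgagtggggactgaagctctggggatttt
Tnfrsf9 NF-kB match: cagctGGGGATTTCCCagga
Tnfrsf9 AP-1 match: tcagtTGAGTCAcaggtcct

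The downstream Tnfrsf9 window held 2 overlapping NF-kB matches, 43 to 33 bases before the start, and an AP-1 match 15 to 9 bases before it. The upstream window held neither. An NF-kB match occurred in 7.25% of all 32851 windows of this length in the table, an AP-1 match in 6.75%, and both in 0.356%. GGAAA occurred in 55.6% of them, in both Tnfrsf9 windows, and once within the NF-kB matches. Windows of 6 of the 10 members were searched, 7 windows in all. Of these, the downstream Tnfrsf9 window was the 1 with an NF-kB or AP-1 match. Cd226, on chromosome 18, was left out of the search, and Cd28, Icos and Cd2 had no window in the table. Whether Cd226 holds a match is thus not known here. A match is a description of letters, and the gene-level FPKM does not show which start was used.

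Tnfrsf4 encodes OX40, which prolongs the response of activated CD4 T cells, and Tnfrsf18 encodes GITR, which is also high on regulatory T cells. They are next to each other on chromosome 4 (156013595 to 156016613 and 156026322 to 156028894), 9708 bases apart, and their courses differed. Tnfrsf4 stood at 49.6, 112.0 and 145.2 FPKM in WT and at 53.1, 105.9 and 127.5 under the other label. The level went up at each step, and 48 h was 2.89-fold above rest in WT and 2.37-fold under the other label. Tnfrsf18 stood at 100.9, 131.1 and 105.3 FPKM in WT and at 106.1, 135.9 and 104.1 under the other label. It was 1.30-fold and 1.28-fold above rest at 6 h and close to rest at 48 h, so Tnfrsf4 was below its neighbour at 0 h and above it at 48 h. The Tnfrsf18 value is uncertain, since 27.2% of its exon bases also belong to the antisense gene Gm16008 and the sources used here do not say whether counting used strand. Got1, Phf10 and Psma5 were most like Tnfrsf4 (0.033 to 0.048), and Atp6v0c, Rrp36 and Rpl36 most like Tnfrsf18 (0.023 to 0.036).

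Cd27 (chromosome 6, 125232620 to 125237136), the receptor for CD70 on naive and memory T cells, was high at rest and higher at 6 h. Its levels were 138.8, 273.8 and 108.9 FPKM in WT and 146.1, 296.4 and 112.1 under the other label. The 6 h libraries stood apart from the other 4. By 48 h the level was 2.50-fold and 2.63-fold below 6 h and 1.27-fold and 1.30-fold below rest. The most similar courses were those of Relb, Ptpn22 and Runx1 (0.071 to 0.10). Its ligand gene Cd70 was listed at 0 at rest and at 6 h and at 0.07 FPKM at 48 h under both labels.

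The receptors for TNF differed from each other. Tnfrsf1a encodes TNFR1, which carries a death domain and is found on most cells, and Tnfrsf1b encodes TNFR2, which lacks that domain and costimulates T cells. Tnfrsf1a (chromosome 6, 125349723 to 125362483) stood at 18.5, 17.3 and 15.4 FPKM in WT and at 19.1, 18.95 and 16.2 under the other label. No time differed from another by more than 1.19-fold in WT. Tnfrsf1b (chromosome 4, 145212368 to 145246870) stood at 7.94, 21.8 and 16.2 FPKM in WT and at 8.48, 25.4 and 16.9 under the other label. It was 2.54-fold and 2.79-fold above rest at 6 h and 1.93-fold and 1.89-fold above rest at 48 h; with a pseudocount of 0.1 FPKM the 48 h change in WT passed the rule (log2 1.02). At rest TNFR1 transcripts were the more abundant per length, and at 6 h TNFR2 transcripts were. At 48 h the levels were close, with Tnfrsf1b at 16.2 and Tnfrsf1a at 15.4 FPKM in WT. Camkk2, Nfkb1 and Nol9 were most like Tnfrsf1b (0.036 to 0.053), and Mettl14, Chmp7 and Stxbp2 most like Tnfrsf1a (0.029 to 0.034).

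The windows before the starts of this pair are shown because 1 gene responded at 6 h and the other did not. The Tnfrsf1b window is chr4:145246871-145247120 on the minus strand, and the part of the Tnfrsf1a window outside annotated untranslated exons is chr6:125349509-125349722 on the plus strand. Neither held an NF-kB, AP-1 or GGAAA match, so no letters are in capitals. The GC content of the full windows was 62.8% for Tnfrsf1b and 55.6% for Tnfrsf1a.
Tnfrsf1b: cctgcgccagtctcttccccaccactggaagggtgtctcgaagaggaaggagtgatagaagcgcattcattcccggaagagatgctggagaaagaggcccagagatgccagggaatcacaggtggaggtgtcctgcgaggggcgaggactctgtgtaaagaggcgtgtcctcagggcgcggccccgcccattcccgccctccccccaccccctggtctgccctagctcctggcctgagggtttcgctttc
Tnfrsf1a: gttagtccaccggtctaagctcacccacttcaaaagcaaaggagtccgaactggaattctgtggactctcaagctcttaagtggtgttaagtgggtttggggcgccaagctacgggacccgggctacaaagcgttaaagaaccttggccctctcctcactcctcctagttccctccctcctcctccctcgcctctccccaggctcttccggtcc

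**Figure D2:**
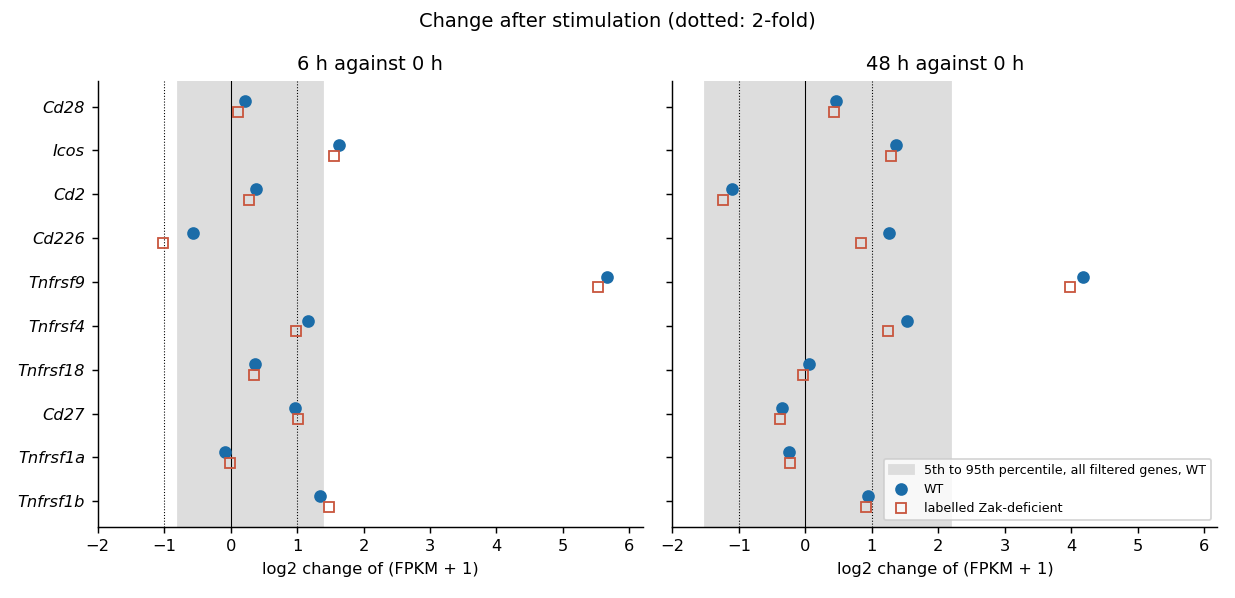
Log2 change of (FPKM + 1) at 6 h and 48 h against 0 h (x axis) for the 10 receptor genes; filled circles are WT, open squares the libraries labelled Zak-deficient, and the grey band runs from the 5th to the 95th percentile of all 10347 genes in WT. Tnfrsf9 lies far to the right in both panels (5.66 and 4.17 in WT), and Cd226 is the member whose 2 symbols are farthest apart.

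FPKM is scaled to length, so the receptors can be ranked within a library. At rest the order was the same under both labels: Cd2, Cd27, Cd28, Tnfrsf18, Tnfrsf4, Icos, Tnfrsf1a, Tnfrsf1b, Cd226 and Tnfrsf9, over a 64.0-fold range in WT. At 6 h it began with Cd2, Tnfrsf9 and Cd27 under both labels, and Cd28 and Tnfrsf18 changed places between the labels. At 48 h the range was 10.2-fold in WT. Cd28 came first, while Cd2 and Tnfrsf4 changed places between the labels, as did Tnfrsf9 and Tnfrsf18, and Cd226 was eighth in WT and last under the other label. Neighbours that changed places cannot be ranked from these libraries. The summed FPKM of the 10 genes was 760.2, 1433 and 861.4 in WT and 809.4, 1480 and 849.3 under the other label.

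No receptor gene differed 2-fold between the labels at any time. By that rule the label Zak-deficient had 0.222% of all genes above WT and 0.0483% below it at 0 h, 0.116% and 0.135% at 6 h, and 1.8% and 0.435% at 48 h. The largest differences of a member were 1.19-fold at 0 h (Tnfrsf9, higher), 1.23-fold at 6 h (Cd226, lower) and 1.21-fold at 48 h (Cd226, lower). Without replicates there is no spread to set these against. At rest all 10 members were higher in the library labelled Zak-deficient, by a median log2 difference of 0.08, while 47.4% of all genes were higher, 51.9% were lower and the median gene stood at -0.01. This count was 10 under each of the 3 scalings, where the genes higher over all 10347 numbered 5428 with a common sum, 3620 with median-ratio and 6252 with upper-quartile scaling. Taken without direction, the median log2 difference at rest was 0.082 for the members and 0.083 for all genes, so its size was ordinary. At 6 h 7 members were higher (46.5% of all genes) and 3 lower (53.1%). At 48 h 5 were higher (45.7%) and 5 lower (53.9%). With upper-quartile scaling 4 members and 3893 of the 10347 genes were higher at 6 h, and 8 members and 8269 genes at 48 h. With median-ratio scaling 0 members and 1604 genes were higher at 48 h, so the members' counts moved the same way as those of all genes.

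Most markers of regulatory T, B, myeloid and NK cells were also higher at rest in the library labelled Zak-deficient, and some were at the later times. Of 6 CD4 T cell markers, 2 were higher and 4 lower at rest (1743.8 FPKM in sum against 1743.4 in WT). Of 7 naive T cell markers, 3 were higher and 4 lower (3531.7 against 3569.4). The 2 CD8 T cell markers were split at each time, 1 higher and 1 lower. Their sum was 10.5 FPKM against 11.7 in WT at rest, 10.9 against 10.1 at 6 h, and 12.8 against 8.88 at 48 h. Regulatory T cells are known to carry GITR, OX40, ICOS and 4-1BB. Of 6 regulatory T cell markers, 5 were higher in the resting library labelled Zak-deficient, with a sum of 115.7 FPKM against 92.9 in WT. Foxp3, their lineage factor, stood at 16.0 against 14.1, and Il2ra at 14.2 against 10.2. Ctla4, also counted below among inhibitory receptors, stood at 67.9 against 52.0. At 6 h the marker sums were 207.6 and 202.9, and at 48 h 176.9 and 178.9. All 6 B cell markers were also higher at rest (7.18 against 3.33 FPKM in sum), as were 5 of 8 myeloid markers (2.15 against 1.79) and 5 of 6 NK cell markers (9.65 against 8.48). At 6 h 3 of 6 B cell markers (5.41 against 4.88), 3 of 8 myeloid markers (1.74 against 2.02) and 5 of 6 NK cell markers (9.81 against 8.61) were higher. At 48 h all 6 B cell markers (7.64 against 5.45), 6 of 8 myeloid markers (2.90 against 1.70) and 2 of 6 NK cell markers (2.89 against 2.94) were. The part of these markers' cells in the members' differences was not tested.

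**Figure D3:**
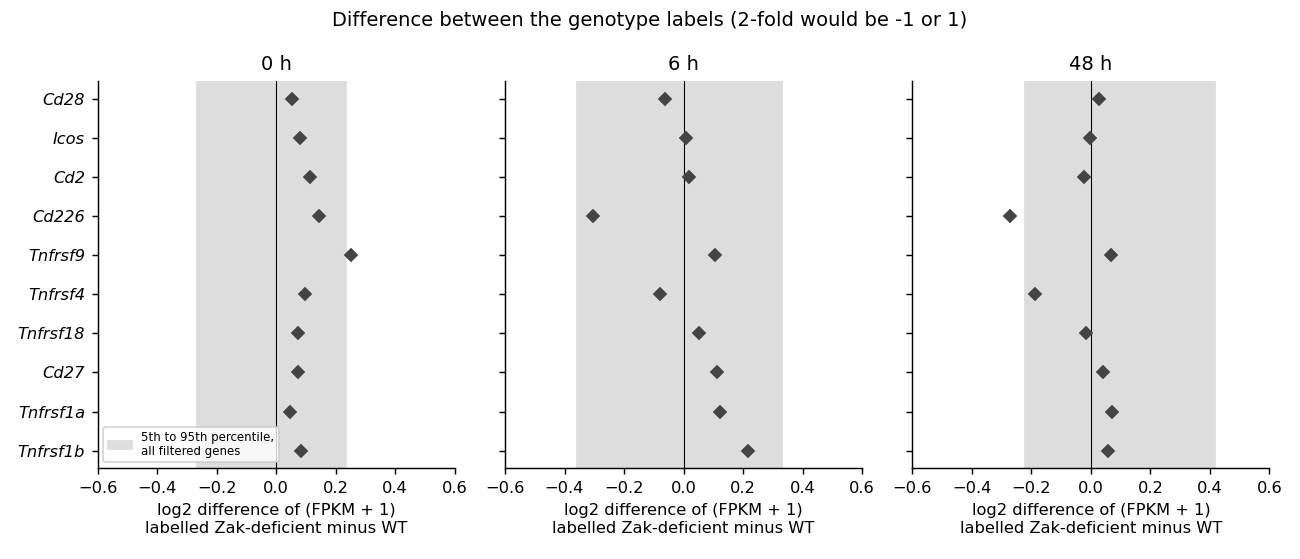
Log2 difference of (FPKM + 1) between the library labelled Zak-deficient and WT (x axis, positive where the former is higher) at 0, 6 and 48 h for the 10 receptor genes, 1 pair of libraries per panel; the grey band runs from the 5th to the 95th percentile of all 10347 genes. All 10 points lie above 0 at 0 h, and Cd226 is the lowest point at 6 h and 48 h (-0.30 and -0.27).

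The ligands of these receptors are mostly made by antigen-presenting cells. Of 12 ligand genes, 7 passed the filter, and 2 of these passed the 2-fold rule upward at 6 h in WT, with a median log2 change of 0.10 (-0.06 for all genes). Tnf stood at 2.95, 127.4 and 40.0 FPKM in WT, and Lta, which encodes the other soluble ligand of the TNF receptors, at 9.70, 88.4 and 30.7. Both peaked at 6 h, as Tnfrsf1b did. At 48 h 3 of the 7 were higher and 1 lower. Tnfsf4, the OX40 ligand gene, stood at 0.54, 1.21 and 19.3 FPKM in WT and at 0.35, 0.90 and 24.2 under the other label, so the ligand and its receptor were both highest at 48 h. Icosl was the lower one, at 3.36 and 0.40 FPKM at 0 and 48 h in WT. Cd48, the ligand of CD2, stood at 100.4, 75.9 and 65.5 FPKM. The genes for the CD28 ligands were low in WT, with Cd80 at 0.44 to 1.03 FPKM and Cd86 at 0.21 to 1.06. At 48 h Lta was the ligand gene farthest apart between the labels in the lower direction (19.8 FPKM labelled Zak-deficient against 30.7 in WT, 1.53-fold).

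Of 20 genes for TRAF adaptors and NF-kB signalling, all passed the filter. At 6 h in WT 1 passed the rule upward and 0 downward (median 0.07, against -0.06 for all genes). That gene was Nfkb1, which encodes the p105 precursor of an NF-kB subunit, at 74.0, 189.6 and 146.6 FPKM in WT. At 48 h 4 were lower and 0 higher (median -0.37, against 0.00 for all genes). Tnfaip3, which encodes the NF-kB brake A20, stood at 85.1, 58.0 and 10.9 FPKM, Map3k14 (the kinase NIK) at 30.01 and 12.7 at 0 and 48 h, and Birc3 at 91.4 and 40.6. Traf5, an adaptor of OX40 and CD27, was the other lower gene, at 24.5, 12.8 and 10.6. Traf1 stood at 120.8, 132.4 and 75.6 FPKM and Traf2 at 20.1, 22.0 and 19.9. The counts under the other label were the same at both times. Between the labels at 6 h, 16 of the 20 were higher in the library labelled Zak-deficient and 4 lower, beside 46.5% and 53.1% of all genes. Their median log2 difference was 0.17 (-0.02 for all genes), with none at 2-fold. Upper-quartile scaling moved the median gene of this comparison by -0.05 and a common sum by 0.07. This list was not counted under those scalings, and the values rest on 1 pair of libraries.

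Of 16 genes that act below CD28, ICOS, CD2 and DNAM-1, 2 were higher and 1 lower at 6 h in WT (median -0.25, against -0.06 for all genes), and 1 higher and 4 lower at 48 h (median -0.30, against 0.00). Under the other label the counts were 2 higher and 2 lower at 6 h, and 1 and 4 at 48 h. Lcp2, which encodes the adaptor SLP-76, stood at 51.8, 208.4 and 244.9 FPKM. Grap2, which encodes its partner GADS, went the other way, at 168.0, 71.7 and 31.9. Both held under the other label (51.6, 199.5 and 228.7 for Lcp2, and 171.1, 80.5 and 27.0 for Grap2). Fyn, a Src-family kinase gene, stood at 81.9, 170.5 and 145.2 FPKM in WT.

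Of 7 genes listed for inhibitory receptors, 5 passed the filter: Ctla4, Tigit, Cd96, Btla and Cd160. The products of Ctla4, Tigit and Cd96 compete with CD28 or DNAM-1 for ligands. For Btla and Cd160 no ligand shared with a member is named here. In WT 2 were higher and 0 lower at 6 h (median -0.06, the same as for all genes). At 48 h 2 were higher and 1 lower (median 0.88, against 0.00 for all genes). The 2 higher genes were Btla and Cd160 at both times, so none of Ctla4, Tigit and Cd96 passed the rule upward in WT. Of all genes, 8.94% were higher and 1.39% lower at 6 h, and 17.8% and 12.3% at 48 h. Under the other label the counts of inhibitory receptor genes were 2 and 0 at 6 h, and 3 and 1 at 48 h. Tigit was the added higher gene at 48 h there (2.01-fold). Btla, whose product binds the TNF receptor family member HVEM, stood at 21.0, 67.9 and 208.1 FPKM in WT and at 18.9, 67.7 and 214.9 under the other label, 9.51-fold and 10.8-fold above rest at 48 h. Of the competitors of DNAM-1, Tigit stood at 6.36, 6.04 and 12.6 FPKM in WT and Cd96 at 48.1, 33.4 and 12.6. Cd96 and Cd226 thus changed order: Cd96 was above Cd226 at rest and below it at 48 h, under both labels.

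Among 20 other genes of the TNF receptor superfamily, 10 passed the filter. In WT 0 were 2-fold higher at 6 h or 48 h, 0 were lower at 6 h, and 4 were lower at 48 h (median log2 change -0.71, against 0.00 for all genes). Under the other label 1 was lower at 6 h and 4 at 48 h (median -0.37, against 0.06). Tnfrsf26 stood at 95.2, 48.1 and 9.48 FPKM in WT, and Tnfrsf25, the receptor DR3, at 33.2, 23.3 and 6.80. Fas, the death receptor gene, was 1.93-fold above rest at 6 h in WT. Tnfrsf23 shares 31.7% of its 24-base sequences with other genes, and its value (7.34, 3.20 and 1.41 FPKM in WT) is uncertain. Tnfrsf10b was the 1 gene of this list at least 2-fold apart between the labels, at 46.8 FPKM in the 48 h library labelled Zak-deficient against 15.9 in WT. Its value is uncertain too, since 201 of its 24-base sequences occur in transcripts of 50 or more genes.

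**Figure D4:**
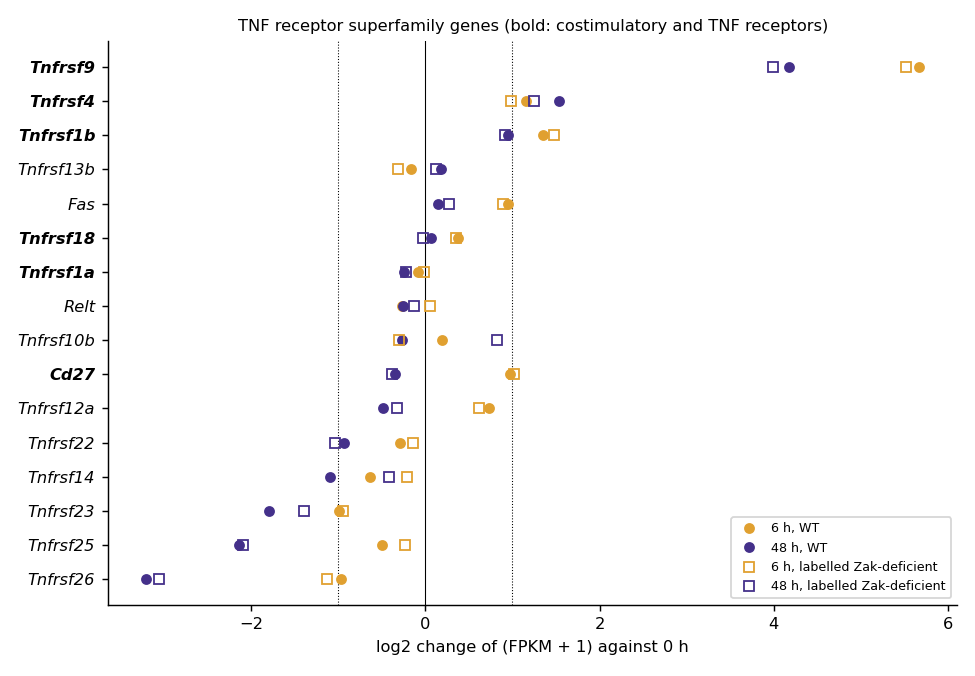
Log2 change of (FPKM + 1) against 0 h (x axis) for the 16 TNF receptor superfamily genes that passed the filter, ordered by the 48 h change in WT; colours give the time, filled circles WT and open squares the libraries labelled Zak-deficient, and bold names the 6 members. Tnfrsf9, Tnfrsf4 and Tnfrsf1b are at the top, and Tnfrsf26 and Tnfrsf25 at the bottom (-3.20 and -2.13 at 48 h in WT).

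Survival genes known as targets of costimulation were counted as well. Of 7, 6 passed the filter, and in WT 4 passed the rule upward at 6 h and 5 at 48 h (medians 1.10 and 2.13, against -0.06 and 0.00 for all genes), with 0 lower and the same counts under the other label. Bcl2l1, which encodes Bcl-xL, a target of CD28 and OX40 signals, stood at 8.56, 19.7 and 23.6 FPKM in WT and at 7.79, 19.4 and 21.3 under the other label. Bcl2 stood at 9.27, 20.8 and 20.7 FPKM in WT. Birc5, which encodes survivin and is also a gene of dividing cells, was at 1.96 FPKM at rest and 89.2 at 48 h in WT. Bcl2a1b (7.08, 188.0 and 118.1 FPKM) and Bcl2a1d have near-identical copies, so their values are uncertain.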

How the data were processed

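Gene levels of 6 bulk RNA libraries, 1 per genotype label and time, were used. Per the submitters' processing notes, Bowtie, RSEM and mm10 were used; the sources used here give no versions, settings or strandedness. The authors deposited FPKM values per gene and library, without counts, so no count test was possible. Symbols, coordinates and promoter windows came from RefSeq GRCm38.p6 and exons from GENCODE M21; 18326 of 18446 gene identifiers had a symbol, and 120 without one stayed in the counts. Differences were taken on log2(FPKM + 1) without rescaling, counted at 2-fold or more over genes of mean 1 FPKM or more, with Python 3.11.15, numpy 2.4.6 and pandas 2.3.3. The calculation was tested on simulated data.

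The members, gene lists and motifs were chosen with earlier results of these data known. Named genes were the 10 members, up to 3 genes each way with the largest change per list and comparison, and the 3 genes of mean 5 FPKM or more nearest each member in centred log2 values, passing over gene models and antigen receptor segments; adjoining protein-coding genes could be named too. Outside this rule, Map3k20 and cell type markers (among them Cd8a, Cd8b1, Foxp3, Il2ra, Cd14 and Itgax) are given as checks of the labels. The markers given singly, and Cd80, Cd86, Cd70 and Traf2, were chosen after their values were seen. Alternatives were pseudocounts of 0.1 and 5 FPKM, no filter or a mean of 5 FPKM, 3 scalings, and 1.5-fold and 4-fold rules. A 24-base sequence was called shared when another gene's transcript held it; 3 members (Cd27, Tnfrsf1b and Tnfrsf9) carried some that 50 or more genes hold, and at most 4.90% of a member's sequences were shared with any gene.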

Additional observations from a re-analysis of the deposited data

How the results depend on the processing

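With 1 library per group, no result has a replicate check, and depth is unknown, so the precision of low members such as Cd226 and resting Tnfrsf9 is not known. No paired analysis was possible by replicate number, because the labels carry none. A fit of the genotypes paired by time could be made over the 3 times but was not run here. The 2 filter settings could not change a member's call, since every member has a mean above both minimums. Under the other alternatives, 62 of 72 member counts stayed within 1.5 times of the reported count. These include the counts of members passing the rule between the labels. There the reported count was 0 and the largest difference of a member was 1.23-fold, so those counts could hardly move and say little about stability. With the 4-fold rule 1 member passed at 6 h and 1 at 48 h against rest under each label, and 0 between 48 h and 6 h. A stricter rule lowers such counts by construction, and the share of all genes passing it is not given here. With a pseudocount of 5 FPKM 3 members passed at 6 h under the label Zak-deficient in place of 5. Over all 10347 genes, 636 higher and 59 lower took the place of 939 and 157 there. The number of members above WT changed with scaling, a check chosen after seeing the data: at 48 h it was 0 with median-ratio scaling (1604 of all 10347 genes) and 8 with upper-quartile scaling (8269 genes) in place of 5 (4729 genes), and at 6 h it was 4 with upper-quartile scaling (3893 genes) in place of 7 (4816 genes). Of 450 single member values under these alternatives, 0 reversed direction after passing the rule and 13 crossed the 2-fold line or moved by over 1.5 times. These were values of Tnfrsf9, Cd226, Cd27, Tnfrsf4 and Tnfrsf1b.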
